A study of Mus musculus with 8 samples.

Results

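Lipid-associated macrophages are macrophages that take up and store lipid, as found in fatty tissue, atherosclerotic plaques and damaged organs. The 9 genes described here are commonly used to name that state: Trem2, Cd9, Gpnmb, Lgals3, Spp1, Lpl, Fabp4, Fabp5 and Plin2. They were chosen by name, with earlier results of these data known. A probe belonged to a member when its transcript accession was that of the gene. All 9 were found among the 21150 genes named on the array, through 10 probes, since Lpl had 2. Every member probe was well above background on every array on which it had a usable spot, so all 9 passed the filter on dim probes.

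Trem2 is a surface receptor that senses lipids and lipoproteins and signals through the adaptor Tyrobp. Lipoprotein lipase (Lpl) releases fatty acids from lipoproteins, Fabp4 and Fabp5 carry fatty acids inside the cell, and Plin2 coats the droplets in which they are stored. Resident macrophages of the peritoneal cavity differ from the monocyte-derived macrophages that enter it after an irritant such as thioglycollate.

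RNA of adherent peritoneal cells from 8 week old mice of a mixed 129 and C57Bl6 background was hybridised to 8 single-colour arrays, 2 in each of 4 groups. The Fra-2 line comprised Fra-2lox/lox controls and Fra-2lox/lox LysMCre-/+ mice, in which Cre is driven by a myeloid promoter to delete Fosl2. The Fra-1 line comprised Fra-1lox/lox controls and Fra-1lox/lox MxCre-/+ mice, in which Cre is driven by an interferon-inducible promoter that is not restricted to macrophages, to delete Fosl1. Fosl1 and Fosl2 encode Fra-1 and Fra-2, both subunits of the AP-1 transcription factor. The Fra-1 line samples, controls included, carried a label of thioglycollate elicitation and the Fra-2 line samples did not. Mouse line, that label and the preparation therefore cannot be told apart in any comparison between the lines. The labels do not tie each array to an animal, so p-values measure the spread between these samples, which may be technical.

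Levels below are log2 of the processed signal relative to the array's 75th percentile, so 0 is the signal of the probe at that percentile and 1 unit is a doubling. Differences were tested with limma over all features, and a difference was called at a Benjamini-Hochberg adjusted p under 0.05. The ± sign gives the SD of 2 arrays. The 75th percentile ran from 315 to 470 signal units, and 47.7% to 57.6% of spots were well above background, lowest on Fra-2 knockout 1. The targeted genes gave a mixed check of the labels. Fosl1 was at -2.73 and -1.97 in Fra-1 controls and not well above background on either Fra-1 knockout array, at least 3.91-fold lower, with an adjusted p of 0.358. The brighter Fosl2 probe was at 5.51 and 5.57 in Fra-2 controls and at 6.43 and 7.14 on the arrays labelled Fra-2 knockout, which goes against the label (difference 1.24, adjusted p = 0.210). The dimmer Fosl2 probe was lower on the arrays labelled Fra-2 knockout, at -3.89 ± 0.10 against -2.62 ± 0.04. It was not well above background on Fra-2 knockout 1. In a limma fit of every probe on its own, its difference was -1.27 and not called (adjusted p = 0.299). Where either probe lies relative to the deleted part is not given in the sources used here, so directions drawn from this label rest on the label. All macrophage markers tested were detected in every group, and the summed level of the 10 measured on every array was 1370 to 1805 times the 75th percentile in Fra-1 controls and 1492 to 1715 in Fra-2 controls. Their mean log2 level did not overlap, at 5.23 to 5.50 against 6.25 to 6.27. Of the 11 tested, 2 were called higher and 5 lower in Fra-1 controls (median -0.70), against 18.1% and 17.8% of all features.

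The stretch just before the start site is shown for the 2 members with the widest difference between the lines, Gpnmb and Spp1, and for Trem2, the single member with a match to the AP-1 motif. The sequences are from RefSeq (assembly GRCm38.p6), plus strand, 60 bases each, at chr6:49036458-49036517 for Gpnmb, chr5:104435051-104435110 for the outer start site of Spp1 and chr17:48346341-48346400 for Trem2. Capitals mark the motif match.
Gpnmb: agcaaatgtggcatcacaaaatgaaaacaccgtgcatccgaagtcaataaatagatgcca
Spp1: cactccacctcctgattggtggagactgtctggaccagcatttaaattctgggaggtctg
Trem2: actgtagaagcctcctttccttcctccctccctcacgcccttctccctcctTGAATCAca
The AP-1 motif (TGANTCA, both strands) was searched in the 250 bases before each start site, and 6 of the 9 members had a promoter entry, with 7 start sites. It matched in 1 of the 7, that of Trem2, and in 6.75% of 32851 promoters of the same length. No member promoter held the CRE motif TGACGTCA, the E-box CACGTG or the M-box TCATGTG, which matched in 1.55%, 6.02% and 3.25% of all promoters. Fabp4, Fabp5 and Lpl had no entry. A match is a description of these letters, not of a bound site.

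The members were higher in the Fra-1 line than in the Fra-2 line, least so for Fabp5 and Lgals3. Neither comparison of knockouts with their controls called any of them. Between the controls, 8 of 9 members were called higher in the Fra-1 line and none lower, against 18.1% of 23100 features called higher and 17.8% called lower. Between the knockouts, 8 of 9 were called higher, against 22.3% of 23116 features called higher and 18.8% lower. The exceptions were Fabp5 between the controls and Lgals3 between the knockouts. The members were chosen with earlier results known, so these shares cannot test them as an unselected set. The median difference of the members was 2.74 between the controls and 3.42 between the knockouts, with medians of -0.03 and 0.02 over all features. All 9 members were higher on each Fra-1 line array than on any Fra-2 line array measured, a pattern over all arrays that 26.3% of 23098 features shared. In bulk RNA, fewer cells of a type and less RNA per cell cannot be told apart.

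**Figure D1:**
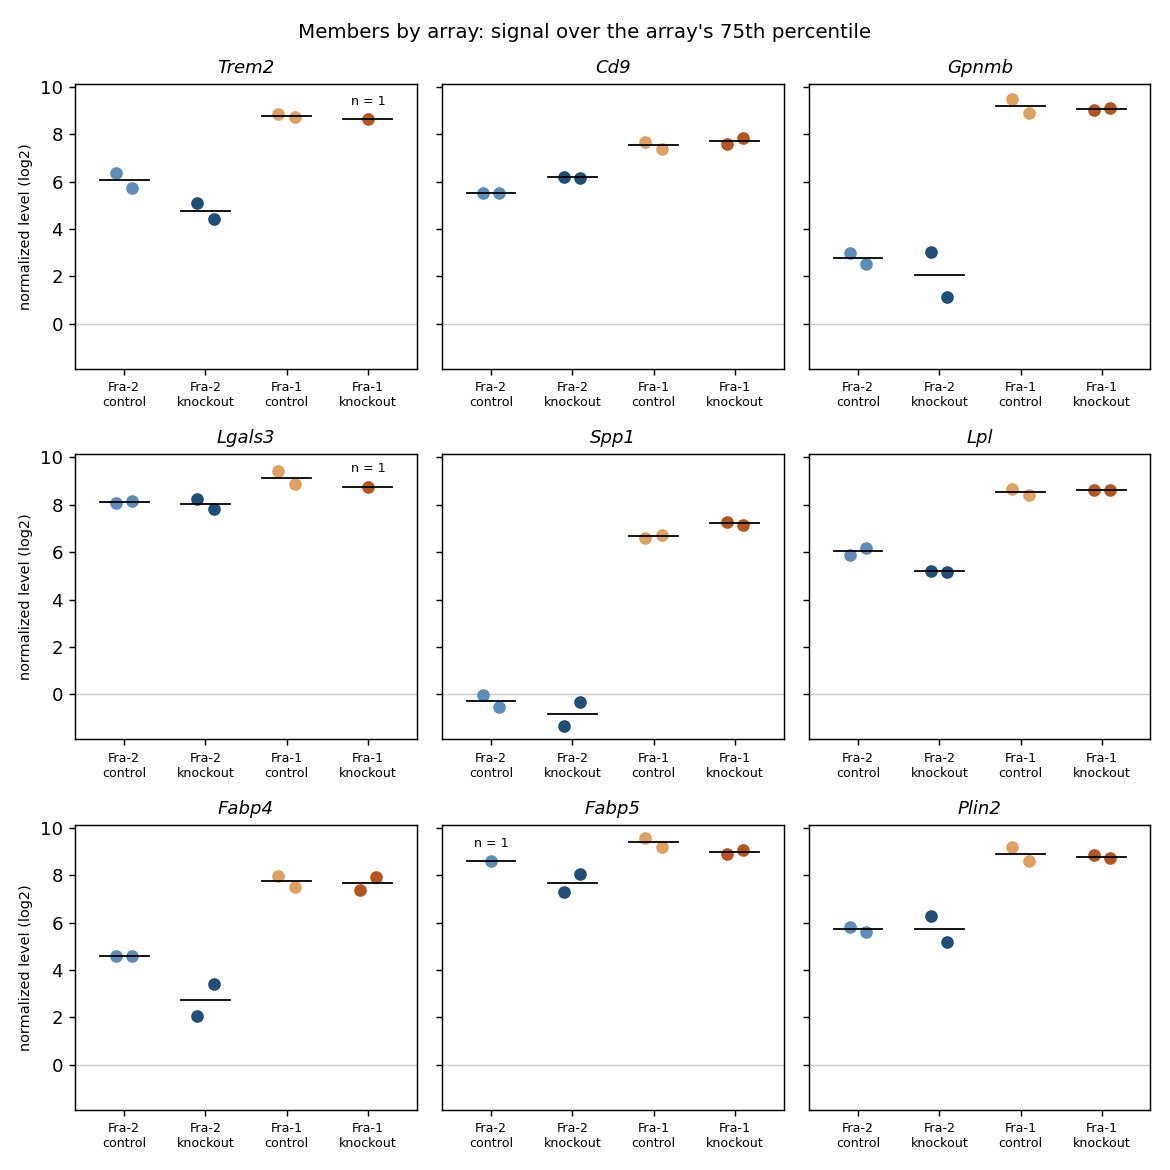
Normalized level (log2 signal over the array's 75th percentile) of the 9 members on each array, 1 panel a gene. Points are arrays, bars are group means, and n = 1 marks groups in which 1 array's spot was left out. Spp1 goes from -0.28 in Fra-2 controls to 6.66 in Fra-1 controls, while Lgals3 goes from 8.13 to 9.13.

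Among the surface proteins, Trem2 was at 8.85 and 8.72 in Fra-1 controls and at 6.35 and 5.75 in Fra-2 controls. On the arrays labelled Fra-2 knockout it was at 5.12 and 4.42, and on the single usable Fra-1 knockout array at 8.64. The 2 lines did not overlap, and the arrays labelled Fra-2 knockout were the lowest of all. Trem2 was 6.66-fold higher in Fra-1 than in Fra-2 controls (difference 2.74, SE 0.32, adjusted p = 0.00309) and 14.7-fold higher between the knockouts (3.88, SE 0.39, adjusted p = 0.00186). The spot on Fra-1 knockout 2 was an outlier in uniformity and left out. Kept, it read 8.31, and the difference between the knockouts was 3.72.

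Cd9, a tetraspanin that organises membrane proteins, was at 7.68 and 7.39 in Fra-1 controls and at 7.58 and 7.86 in Fra-1 knockouts. In the Fra-2 line it was at 5.52 and 5.53 in controls and at 6.20 and 6.16 on the arrays labelled knockout. Here the arrays labelled Fra-2 knockout lay above their controls, the reverse of Trem2, and both lay below the Fra-1 line. The line difference was 2.01 between the controls (4.02-fold, SE 0.16, adjusted p = 4.87e-04) and 1.54 between the knockouts (2.90-fold, adjusted p = 0.00104).

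Gpnmb, a membrane glycoprotein of lysosome-rich cells, had one of the widest differences on the array. It was at 9.48 and 8.92 in Fra-1 controls and at 9.02 and 9.10 in Fra-1 knockouts. It was at 2.99 and 2.54 in Fra-2 controls, and at 3.01 and 1.14 on the arrays labelled Fra-2 knockout. The Fra-1 line arrays stood close together, and those labelled Fra-2 knockout were 1.88 apart. Between the controls Gpnmb was 86.5-fold higher in the Fra-1 line (difference 6.44, SE 0.59, adjusted p = 8.11e-04), the 34th highest of 23100 features, and between the knockouts 127-fold higher (6.99, adjusted p = 5.90e-04). The size between the knockouts depended on the arrays labelled Fra-2 knockout, at 243-fold (7.93) without the first and 66.1-fold (6.05) without the second. It was 64.2-fold on slide 1 and 7.97 on the log2 scale on slide 2, the latter with no test.

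Of the secreted members, Spp1, which encodes osteopontin, a matrix protein and integrin ligand, was at 6.60 and 6.73 in Fra-1 controls and at 7.28 and 7.15 in Fra-1 knockouts. It was at -0.019 and -0.55 in Fra-2 controls, and at -1.35 and -0.34 on the arrays labelled Fra-2 knockout. Spp1 was thus below the 75th percentile of signal on every Fra-2 line array and far above it on every Fra-1 line array. The line difference was 6.95 between the controls (123-fold, SE 0.35, adjusted p = 1.67e-04, the 19th highest) and 8.06 between the knockouts (268-fold, adjusted p = 9.90e-05, the 7th highest of 23116).

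Lgals3, which encodes the sugar-binding protein galectin-3, was bright in every group. It was at 9.41 and 8.86 in Fra-1 controls, 8.09 and 8.18 in Fra-2 controls, and 8.23 and 7.84 on the arrays labelled Fra-2 knockout. The single usable Fra-1 knockout array read 8.76, and the spot left out on the other read 8.51. The lines did not overlap. Between the controls the difference was 0.998 (2.00-fold, SE 0.24, adjusted p = 0.0308), and with the slide as a block, or with slide 1 alone, it was not called (0.92 and 1.04, adjusted p = 0.0847 and 0.0963). Without Fra-2 control 1, Fra-2 control 2 or Fra-1 control 1 it was not called either, with adjusted p from 0.0980 to 0.116. Between the knockouts the difference was 0.73 (adjusted p = 0.111).

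Of the genes of fatty acid release and transport, Lpl was at 8.68 and 8.41 in Fra-1 controls and at 8.62 and 8.63 in Fra-1 knockouts on its brighter probe. It was at 5.88 and 6.19 in Fra-2 controls, and at 5.22 and 5.18 on the arrays labelled Fra-2 knockout. The 2 Fra-1 groups overlapped, and each Fra-2 line group formed a step of its own. The line difference was 2.51 between the controls (5.69-fold, SE 0.16, adjusted p = 2.87e-04) and 3.42 between the knockouts (10.7-fold, adjusted p = 1.14e-04). The dimmer Lpl probe, in a fit of every probe on its own, gave 2.65 and 3.23 for the same comparisons.

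Fabp4 was at 7.97 and 7.51 in Fra-1 controls and at 7.40 and 7.93 in Fra-1 knockouts. It was at 4.59 and 4.60 in Fra-2 controls, and at 2.07 and 3.40 on the arrays labelled Fra-2 knockout. The Fra-2 controls were nearly equal, and both arrays labelled Fra-2 knockout were below them but 1.33 apart. Fabp4 was 8.82-fold higher in the Fra-1 line between the controls (3.14, SE 0.45, adjusted p = 0.00352) and 30.4-fold higher between the knockouts (4.92, adjusted p = 7.29e-04). Between the knockouts it was 4.26 without Fra-2 knockout 1 and 5.59 without Fra-2 knockout 2.

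Fabp5 was at 9.59 and 9.21 in Fra-1 controls, 8.88 and 9.08 in Fra-1 knockouts, and 7.29 and 8.04 on the arrays labelled Fra-2 knockout. Only Fra-2 control 2 gave a usable spot, at 8.59. All groups were bright, and the Fra-1 line lay above the Fra-2 line by less than for Fabp4. The difference between the controls was 0.81 (1.75-fold, 95% interval -0.13 to 1.74, adjusted p = 0.149). With the outlier spot of Fra-2 control 1 kept at 8.14, it was 1.03 (adjusted p = 0.0414). Between the knockouts it was 1.31 (2.49-fold, adjusted p = 0.0223), with adjusted p of 0.0786 and 0.104 without Fra-1 knockout 1 or 2.

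Plin2, the lipid droplet coat protein, was at 9.20 and 8.62 in Fra-1 controls and at 8.84 and 8.73 in Fra-1 knockouts. It was at 5.82 and 5.61 in Fra-2 controls, and at 6.30 and 5.18 on the arrays labelled Fra-2 knockout. Those 2 arrays enclosed their controls, and the Fra-1 line was above all of them. Plin2 was 9.16-fold higher in the Fra-1 line between the controls (3.20, SE 0.39, adjusted p = 0.00203) and 8.26-fold higher between the knockouts (3.05, adjusted p = 0.00215).

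**Figure D2:**
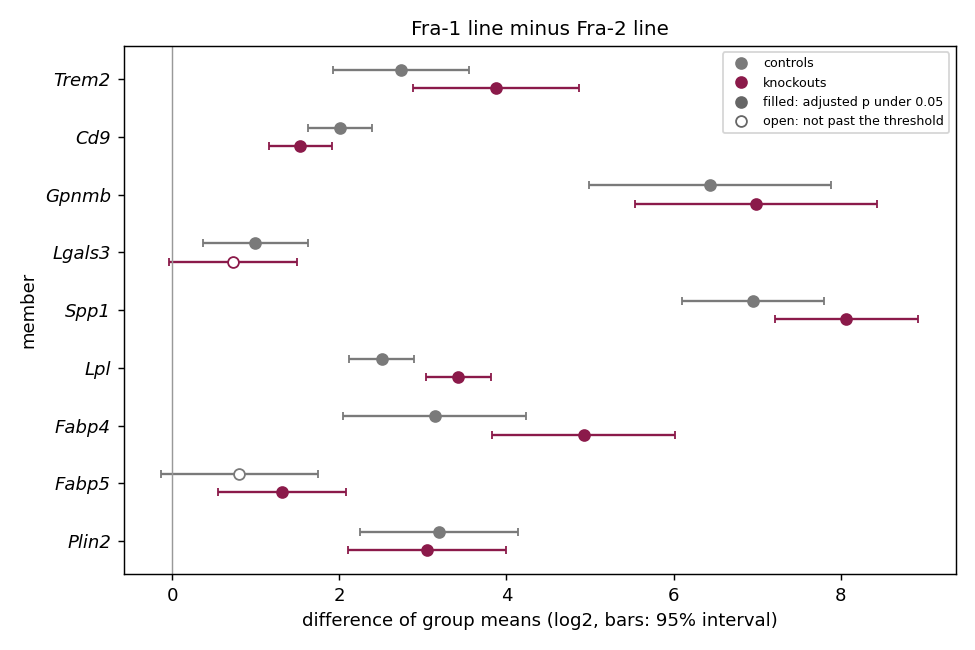
Fra-1 line minus Fra-2 line for each member (log2), between the controls (grey) and between the knockouts (red), with 95% intervals from the fit. Filled points passed an adjusted p under 0.05. Spp1 and Gpnmb lie beyond 6 in both, and the open points are Fabp5 between the controls and Lgals3 between the knockouts.

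Gpnmb and Plin2 formed 1 level a line, since the 2 groups of each line overlapped. Fabp4, Lpl and Cd9 overlapped within the Fra-1 line but not within the Fra-2 line. Spp1 and Lgals3 overlapped within the Fra-2 line only, and Trem2 and Fabp5 overlapped in neither, each with 1 group of 1 array. With the slide as a block, 7 of 9 members were called between the controls and 8 of 9 between the knockouts. The share of all features called in this fit, or with slide 1 alone, is not given here. The counts of either fit therefore have no background to be read against. Slide 1 alone held both Fra-1 controls and 1 array of each other group, so its knockouts were 1 array against 1, with the spread taken from the Fra-1 controls. There 7 of the 8 members measured were called between the controls and 8 of 9 between the knockouts.

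Markers of several other cell types, but not of all, differed between the controls of the lines. Over all features, 18.1% were called higher and 17.8% lower between the controls. Of 15 markers of large resident peritoneal macrophages tested, 10 were lower and 2 higher in Fra-1 than in Fra-2 controls, with a summed level of 226 to 285 against 710 to 867 times the 75th percentile. Of 15 markers of monocyte-derived and small macrophages, 3 were called higher and 7 lower (median -0.70), with summed levels of 363 to 491 against 607 to 668. Timd4, a receptor of resident macrophages, was not well above background on any Fra-1 line array. Of 14 fibroblast markers tested 12 were higher and 1 lower, with summed levels of 277 to 386 in Fra-1 controls, 106 to 161 in Fra-1 knockouts, 6.78 to 11.5 in Fra-2 controls and 10.2 to 10.8 on the arrays labelled Fra-2 knockout. Of 13 mesothelial markers 12 were higher, at 14.3 to 20.9 against 1.83 in sum. Lum, Pdgfra, Postn, Fbn1 and Loxl1 of the fibroblast list were not well above background in the Fra-2 line. All 8 mast cell markers and 7 of 8 B cell markers were lower in Fra-1 controls. Of 11 neutrophil markers 2 were called higher and 2 lower, and of 6 eosinophil markers 1 and 2. Of 8 dendritic cell markers 1 was called higher and 4 lower, and of 7 T and NK cell markers 1 and 4. The part of these cells in the members' difference was not tested.

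Adipocytes also express Fabp4, Lpl and Plin2, and endothelial cells express Fabp4. The adipocyte markers Adipoq, Plin1, Cidec and Lep were not well above background in any group. Of the 6 adipocyte markers tested, Adrb3 was called higher in Fra-1 controls, and Lipe, Retn and Cidea lower. The endothelial markers Tek, Cldn5, Emcn and Robo4 were not well above background in any group. Cdh5 was not in either Fra-2 line group, but was on at least 1 array of each Fra-1 line group. Tie1 was well above background in Fra-1 controls only. The summed level of the 7 tested was 26.0 to 29.8 in Fra-1 controls and 9.15 to 11.4 in Fra-2 controls, with 1 called higher and 1 lower.

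Deletion of Fosl1 was the question of the Fra-1 comparison, and no member was called there. In all, 0.013% of 23104 features were called in either direction, and 0 members and 2040 features had an unadjusted p under 0.05. The members' median difference was -0.13, against 0.03 over all features. Spp1 was higher on both Fra-1 knockout arrays than on both controls, by 0.56 (1.47-fold, SE 0.35, 95% interval -0.30 to 1.41, adjusted p = 0.681). Such separation upward was seen in 27.5% of features. Trem2, Fabp5 and Lgals3 were lower on the Fra-1 knockout arrays measured, a pattern of 19% of features, by 0.14, 0.42 and 0.37. Trem2 and Lgals3 had 1 usable knockout array, which separates more easily than 2, so that share is not a like measure for them. Gpnmb, Fabp4, Plin2, Lpl and Cd9 overlapped between the groups. The intervals were narrowest for Cd9 (0.18, -0.20 to 0.56) and Lpl (0.08, -0.31 to 0.47) and widest for Gpnmb (-0.14, -1.58 to 1.31).

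In the Fra-2 comparison no member was called either, and the values were more varied. Limma called 0% of 23111 features (0 features, with 2035 at an unadjusted p under 0.05), and 4 members had an unadjusted p under 0.05. Trem2, Fabp4, Fabp5 and Lpl were lower on both arrays labelled Fra-2 knockout than in every control measured, a pattern of 20.4% of features. Fabp5 had 1 usable control array, so that share is not a like measure for it. Cd9 was the 1 member higher on both, a pattern of 15% of features. The median over the members was -0.69, against -0.03 over all features.

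Fabp4 had the widest of these differences, -1.86 (3.63-fold lower, SE 0.45, 95% interval -2.95 to -0.77, unadjusted p = 0.00590, adjusted p = 0.289). It was -2.52 within slide 1 and -1.20 within slide 2. Trem2 differed by -1.28 (2.43-fold lower, SE 0.32, adjusted p = 0.337), at -1.23 and -1.34 within the slides. For Lpl the difference was -0.84 (1.78-fold lower, SE 0.16, adjusted p = 0.199, the smallest of the members), at -0.66 and -1.01 within the slides, and -0.96 on its dimmer probe. Cd9 differed by 0.66 (1.58-fold higher, SE 0.16, adjusted p = 0.288), at 0.68 and 0.63 within the slides. These 4 separated the same 4 arrays without overlap, so an equal direction on both slides follows from that and is no further evidence. None passed the threshold over all features.

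The remaining members did not separate the arrays, apart from Fabp5 at -0.93 (SE 0.36, adjusted p = 0.569), which rests on 1 control array. Gpnmb differed by -0.69 (95% interval -2.14 to 0.76), Spp1 by -0.56, Lgals3 by -0.10 and Plin2 by 0.022. The pair labelled Fra-2 knockout did not vary in common: the first array was higher for Gpnmb, Trem2, Plin2 and Lgals3, and the second for Fabp4, Fabp5 and Spp1. For Lpl and Cd9 the pair differed by 0.042 each.

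**Figure D3:**
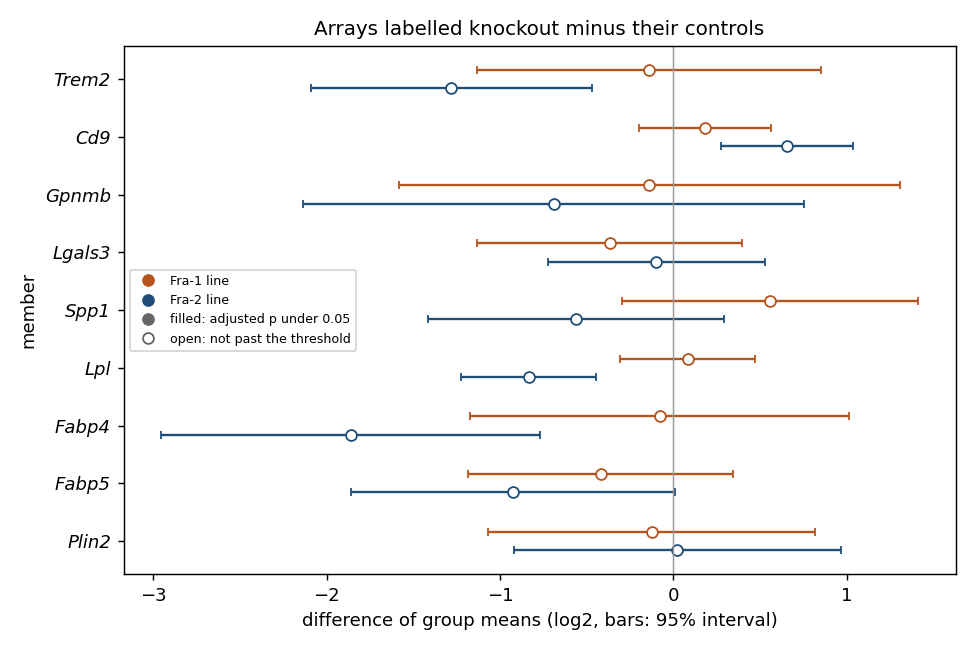
Arrays labelled knockout minus their own controls for each member (log2), in the Fra-1 line (orange) and the Fra-2 line (blue), with 95% intervals from the fit. All points are open, since none passed an adjusted p under 0.05. Fabp4, Trem2 and Lpl in the Fra-2 line lie to the left of 0 with their intervals, and Cd9 to the right.

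The 2 differences were then set against each other in 1 test. No member was called, and 0.00433% of 23098 features were. Lpl differed between the lines' comparisons by 0.92 (SE 0.23, 95% interval 0.36 to 1.47, adjusted p = 0.325) and Fabp4 by 1.78 (SE 0.63, adjusted p = 0.468), and these were the 2 members with an unadjusted p under 0.05. The other 7 ran from -0.47 for Cd9 to 1.14 for Trem2. The lines' comparisons were therefore not shown to differ for any member.

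Genes around the members were counted from 10 lists of related genes, none holding a member and some sharing genes, in Fra-1 against Fra-2 controls. The lists too were chosen with earlier results known. Over all features, 18.1% were called higher and 17.8% lower between these controls. Of 29 other lipid-associated macrophage genes tested, 20 were called higher and 5 lower (median 1.71), and 21 and 6 between the knockouts. Between the knockouts, 22.3% of all features were called higher and 18.8% lower. Atp6v0d2, a subunit of the vacuolar proton pump, was 167-fold higher (adjusted p = 7.50e-05), and Lgals1, which encodes galectin-1, was 10.2-fold higher. Cd36, a fatty acid and lipoprotein receptor, was 7.74-fold higher, and Lipa, the lysosomal acid lipase, 6.18-fold. Not all of the list went one way: Olr1, a receptor for oxidised lipoprotein, was 16.5-fold lower and Cst7, a cathepsin inhibitor, 22.6-fold lower. Apoe, an apolipoprotein usually listed with the state, differed by -0.36 (adjusted p = 0.154). In this list 12 of 29 genes had an unadjusted p under 0.05 in the Fra-2 comparison, against 8.81% of all features, and none was called there or in the Fra-1 comparison. Lgals1 was lower by 3.16-fold on the arrays labelled Fra-2 knockout (-1.66, adjusted p = 0.130), and Atp6v0d2 by 3.18-fold (-1.67, adjusted p = 0.113).

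The lists of partners of single members were small and mostly mixed in direction. Of 20 genes of TREM2 signalling and its ligands, 2 were called higher and 5 lower (median -0.31), against 18.1% and 17.8% of all features. Tyrobp, the adaptor of Trem2, differed by 0.23 (adjusted p = 0.244) and Syk, the kinase below it, by 0.23 (adjusted p = 0.349). Clu, an apolipoprotein that binds Trem2, was 13.2-fold higher, and Treml2, a related receptor, 5.11-fold higher. Ms4a6d was 3.57-fold lower. Trem3 was not well above background in Fra-1 controls, at least 5.85-fold lower.

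Of 19 lipid droplet genes beside Plin2, 6 were called higher and 6 lower (median 0.26), against 18.1% and 17.8% of all features. Mgll, which splits monoacylglycerol, was called higher (adjusted p = 0.00133), with no fold given because 1 of 2 Fra-2 control arrays was well above background. Hilpda, an inhibitor of droplet breakdown, was 6.13-fold higher and Plin3, another droplet coat protein, 4.40-fold higher. The droplet coat protein Plin4 was lower, with no fold given because it was not well above background in Fra-1 controls. Plin5 was called lower (adjusted p = 0.00581), with 1 of 2 Fra-1 control arrays well above background. Cidea was not well above background in Fra-1 controls, at least 7.42-fold lower. Between the knockouts Cidea was not called (adjusted p = 0.414).

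Of 20 genes of fatty acid uptake and PPAR targets, 6 were higher and 3 lower (median 0.37), against 18.1% and 17.8% of all features. Pparg, the lipid-sensing nuclear receptor that activates Fabp4, was at 5.01 in Fra-1 and -0.35 in Fra-2 controls, a difference of 5.36 (41.1-fold, SE 0.23, adjusted p = 1.30e-04), and differed by 5.59 between the knockouts. Slc27a1, a fatty acid transporter, was 7.90-fold higher, and Ppargc1a, a PPAR coactivator, 8.66-fold. Between the knockouts Ppargc1a differed by 1.80 and was not called (adjusted p = 0.0808). Pparg differed by -0.22 in the Fra-1 comparison and by -0.45 in the Fra-2 comparison, neither called (adjusted p = 0.812 and 0.670). Cd36 was lower by 2.31-fold on the arrays labelled Fra-2 knockout (-1.21, adjusted p = 0.186).

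Of 15 partners of lipoprotein lipase and related lipases, 4 were higher and 3 lower (median 0.06), against 18.1% and 17.8% of all features. Angptl4, an inhibitor of the enzyme, was 6.88-fold higher and Lrp1, a lipoprotein receptor, 3.69-fold higher. Apoc1, an apolipoprotein that restrains lipolysis, was 216-fold lower (-7.75, adjusted p = 1.26e-04). Of 5 relatives of Fabp4 and Fabp5 tested, among 13 listed, 4 were higher and 1 lower. Among them Fabp3 was 4.50-fold and Crabp2 4.02-fold higher, and Fabp2 was 1.95-fold lower. Between the knockouts Crabp2 differed by 0.58 and was not called (adjusted p = 0.154).

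For the small lists that follow, the shares over all features were again 18.1% called higher and 17.8% lower. Of 7 galectins beside Lgals3, Lgals1 was the 1 called, and the median was -0.41. The 14 tetraspanins tested beside Cd9 divided evenly, 5 higher and 5 lower: Cd63 and Tspan7 were 3.27-fold and 4.91-fold higher, and Cd81 and Tspan32 4.67-fold and 3.87-fold lower. Of 8 receptors for osteopontin, 2 were higher, the integrin subunits Itgb3 (12.8-fold) and Itgb5 (5.49-fold), and 3 lower, among them Itga9 (9.79-fold) and Itga4 (3.19-fold). The list of MiT factors and Gpnmb relatives had 8 genes tested, among them Usf1, which is neither. Tfeb, a regulator of lysosomal genes, was 2.66-fold higher, and Tfec and Usf1 were 3.34-fold and 1.70-fold lower. Between the knockouts Tfec differed by -1.12 and was not called (adjusted p = 0.128). No gene of the 10 lists was called in either knockout comparison.

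**Figure D4:**
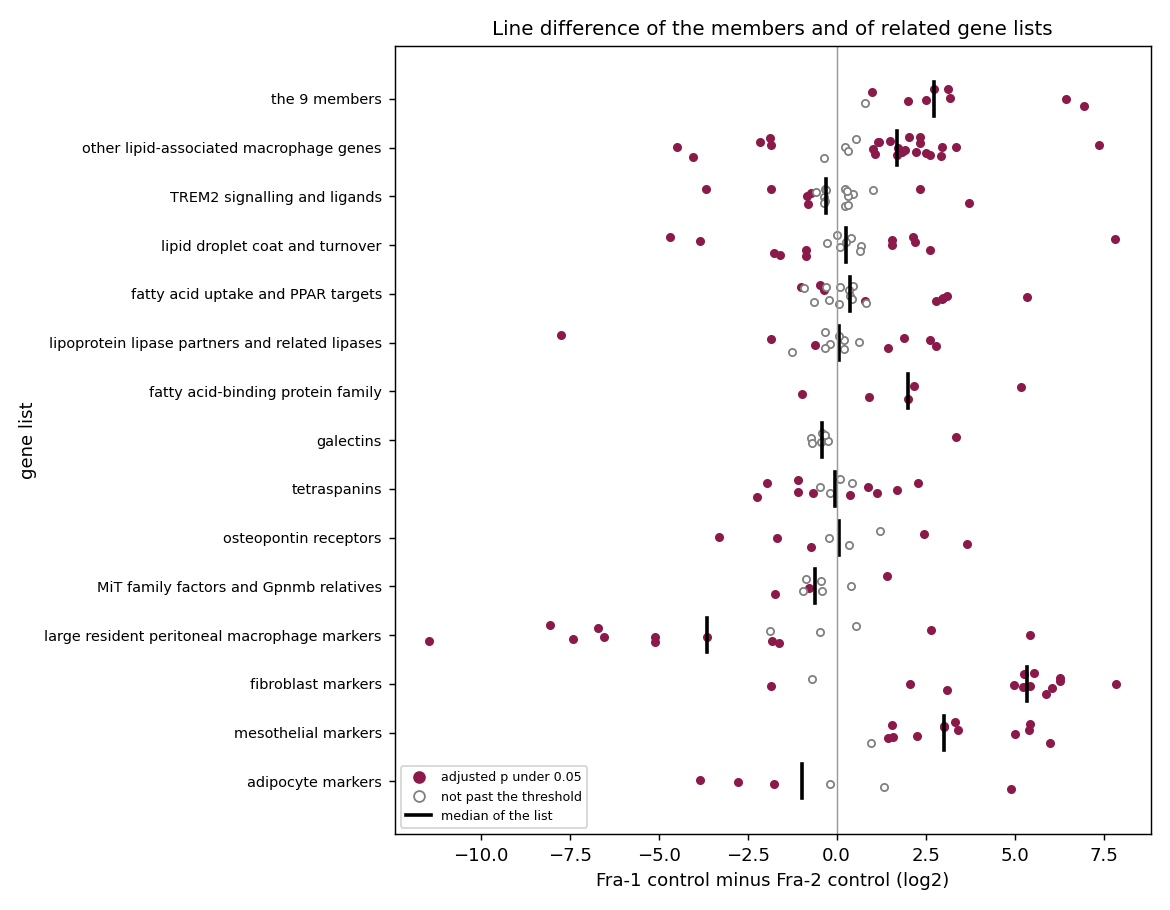
Fra-1 control minus Fra-2 control (log2) for the 9 members, for the tested genes of 10 related lists and for 4 cell marker lists. Points are genes, filled where the adjusted p was under 0.05, and black bars are medians: 2.74 for the members, 1.71 for other lipid-associated macrophage genes, and 5.35 for fibroblast markers.

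Profiles over the arrays were compared by the root mean square difference of centred log2 levels, as a description over at most 8 arrays that share the line difference. Nearest to Trem2 were Cd36 (0.20 over 7 arrays) and Folr2 (0.21), a folate receptor of macrophages, against a spread of 1.74 for Trem2 itself. Nearest to Lpl were Gsn (0.13), which severs actin filaments, and Aopep (0.16), against 1.52. Gpnmb was nearest to Stra6l (0.37), and Spp1 to Speg (0.34), which was well above background on 1 of 2 arrays labelled Fra-2 knockout. Both had Cd109 as their next, which was not well above background on any Fra-2 line array. Fabp4 was nearest to Armcx1 (0.39) and Cd59a (0.44), which were well above background on 0 and 1 of the 2 arrays labelled Fra-2 knockout. For Plin2 these were H2bc4 (0.14) and Daglb (0.15), for Cd9 Cdk14 and Tst (0.12 each), for Fabp5 Hebp1 (0.14) and Pigl (0.20, not well above background on any Fra-2 line array), and for Lgals3 Ankrd12 (0.064) and Igsf8 (0.084). No member was among the 2 nearest of another.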

How the data were processed

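The authors' deposited scanner files hold processed signal intensity per spot on a linear scale (Feature Extraction 11.5.1.1, protocol GE1_1105_Oct12, array build mm9), with 0 or 1 spot flags as other columns, per the file headers. The authors' deposited series matrix holds log2 values, which match the scanner values centred on each probe's median. Control spots and spots with an outlier flag (191 to 317 per array) were left out before averaging the spots of each probe. The filter asked for a signal well above background on both arrays of 1 group or more and left 31159 probes. The brightest probe stood for a gene, giving 23118 features. The 4 group means were fitted over all arrays with limma 3.58.1 in R 4.3.3 (4 residual and 1.99 prior degrees of freedom), and the steps were tested on simulated data. Of 55681 probes, 28020 were named by accession through RefSeq (GRCm38.p6, names only). Python 3.11.15 made tables and figures. The members and lists were chosen with earlier results of these data known. From each list, the text names up to 4 called genes with the largest difference between the controls, or the 2 with the smallest p. One gene that this rule selects is not reported here. For each member, it names the 2 nearest profiles. Apoe, Tyrobp, Syk, Plin3, Plin4 and the adipocyte, endothelial and fibroblast markers were named outside this rule. The number of arrays limits precision. Alternatives were quantile and normexp normalization (offset 50), the series matrix, other filters, probe rules, slide terms, priors, a floor and leaving out each array. Keeping outlier spots was added after seeing the data.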

Additional observations from a re-analysis of the deposited data

How the results depend on the processing

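Counts of members called stayed within 1.5 times: 7 to 9 between the controls, 6 to 9 between the knockouts, and 0 in both knockout comparisons and in the test of their difference, under every alternative run. Slide 2 alone gave no p-values, so it adds nothing to these counts. The share of all features called under each alternative is not given here. Leaving out 1 array left Trem2, Lgals3 or Fabp5 without a value in some comparisons, which lowers the number that could be called. In the line comparisons no member changed direction. Several knockout differences and differences between them, none called, did. In the Fra-1 comparison, quantile normalization gave 0.12 for Gpnmb, 0.11 for Trem2, 0.082 for Plin2 and 0.0042 for Fabp4, normexp gave 0.049, 0.13 and 0.019 for the first 3, the slide as a block gave 0.23 for Gpnmb and 0.11 for Plin2, and the mean of probes gave -0.15 for Lpl. In the Fra-2 comparison, slide 1 alone gave 0.026 for Gpnmb and 0.14 for Lgals3, and slide 2 alone 0.21 for Spp1 and -0.43 for Plin2. For the difference of the comparisons, Plin2 was at 0.065 with quantile normalization and 0.090 with the slide as a block, and Gpnmb at -0.21 on slide 1. Leaving out 1 array, the Fra-1 comparison ran from -0.42 to 0.14 for Gpnmb, -0.34 to 0.19 for Fabp4, -0.059 to 0.22 for Lpl and -0.42 to 0.17 for Plin2. The Fra-2 comparison ran from -1.63 to 0.25 for Gpnmb, -0.30 to 0.099 for Lgals3 and -0.54 to 0.58 for Plin2. Their difference ran from -0.39 to 1.49 for Gpnmb, -0.54 to 0.0022 for Lgals3 and -0.71 to 0.41 for Plin2. The causes were not tested. Fabp5 between the controls was called with normexp (0.95, adjusted p = 0.0399) and the series matrix (1.03, adjusted p = 0.0412). Lgals3 between the knockouts was called with quantile normalization (0.97, adjusted p = 0.0307) and normexp (0.99, adjusted p = 0.0174). With no filter, Lgals3 between the controls and Fabp5 between the knockouts were not called (adjusted p = 0.0709 and 0.0514). A lone array left in a group is assumed to vary like the others. No paired analysis was possible because the labels' sample numbers differ between groups; the slide fits are the nearest to one.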
